A study of Homo sapiens with 12 samples.

Results

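The transcriptome of an A549 line with a knockout of NFE2L1, labelled KO1, was compared with that of a control line, labelled Control1, both given DMSO vehicle for 4 h. A549 is an established human lung carcinoma line. The comparison used 4 of the 12 RNA-seq libraries of the study, 2 per line, and covered 12194 of the 58676 genes in the deposited table (20.8%). These were the genes with a mean FPKM (a read count divided by gene length and by the library's assigned reads) of at least 1 over the 12 libraries. In the other 8 libraries the control and KO1 lines received 200 nM of the proteasome inhibitor bortezomib for 4 h, or a second knockout line, KO2, received vehicle or bortezomib. The labels do not give the guide, the edit, whether a line was 1 clone or a pool, or whether the 2 libraries of a group came from separate cultures. P-values therefore measure only the spread between these libraries, which may be technical.

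NFE2L1, also called NRF1, is a transcription factor of the cap'n'collar family that is made as a glycoprotein of the endoplasmic reticulum. It is normally drawn out to the cytosol and degraded; when proteasomes are impaired it escapes, is deglycosylated by NGLY1 and cleaved by DDI2, and enters the nucleus. There it pairs with small MAF proteins on antioxidant response elements and drives the genes of proteasome subunits. Its relative NFE2L2 (NRF2) binds the same kind of element, and A549 carries a KEAP1 mutation that keeps NRF2 active.

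The 4 libraries held 13879890 to 23819258 reads assigned to genes. Each KO1 library was paired with 1 control library: the libraries titled R2 formed the R2 pair, and KO1 R1 and the control library without a number formed the first pair. Across genes, which are not independent replicates, log2(FPKM + 1) correlated with a Pearson r of 0.951 in the first pair and 0.943 in the R2 pair, but of 0.896 between the 2 control libraries and of 0.842 between the 2 KO1 libraries, so libraries resembled their pair partner more than their own line. Mitochondrially encoded genes took 6.64% and 6.76% of the reads in the first pair and 12.3% (control) and 19.3% (KO1) in the R2 pair. Of 8 markers of the line, CDKN2A, which is deleted in A549, was at 0 in all 4 libraries and the other 7 passed the filter, with summed FPKM of 1990 to 3990 in the control and 1650 to 2620 in KO1. Summed FPKM was 2.01 to 6.08 (control) and 2.30 to 3.04 (KO1) for 7 fibroblast markers and 0.0357 to 0.0888 and 0.188 to 0.211 for 5 endothelial markers. It was 0.541 to 0.992 and 2.14 to 2.29 for 7 leukocyte markers, with CD68 at 0 in all 4 libraries and PTPRC at no more than 0.0602. ITGAM, an integrin subunit of myeloid cells, made up most of the leukocyte sum, with 0.541 and 0.963 FPKM in the control and 1.93 and 2.23 in KO1 (log2 fold change 0.82, limma adjusted p = 0.0183). In bulk RNA, a change in the share of cells and a change in RNA per cell cannot be told apart.

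The targeted gene was low in KO1. NFE2L1 (ENSG00000082641, GRCh38 chromosome 17, 48048329 to 48061487, plus strand) had 72.7 and 151 FPKM in the unnumbered and R2 control libraries and 8.45 and 14.8 in the R1 and R2 libraries of KO1. Both KO1 libraries lay below both control libraries, at 11.6% and 9.82% of their partner. The log2 fold change was -3.11 (SE 0.17, limma adjusted p = 1.4e-05), and 683 and 1603 reads still mapped to the gene. Reads outside an edit check its transcript level and not the protein. KO2 retained more, with 18.6 and 33.6 FPKM.

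Across all genes tested, 971 (7.96%) passed a Benjamini-Hochberg adjusted p of 0.05 in limma with the pair as a block, and these are the genes called below. Of them, 473 were higher in KO1 (3.88% of the genes tested) and 498 lower (4.08%), with median log2 fold changes of 0.89 and -0.85 against 0.02 over all genes tested. The change had the same direction in both pairs for all 971. The fit that called them was blocked on these pairs, so this follows largely from the selection and is no support. The libraries of the 2 lines did not overlap for 670 of them, 356 higher and 314 lower, whereas groups did not overlap for 17.4% of all genes tested. A log2 fold change of at least 1 in size was reached by 178 of the higher and 172 of the lower genes, and one of at least 2 by 22 and 35. Protein-coding genes made up 92.0% of the calls and 87.2% of the genes tested. The calls rest on the pairing. Without the block, 26 genes (0.213%) were called, 11 higher and 15 lower; all 26 were among the 971, and 538 genes had an unadjusted p under 0.05. The split also moved with the scaling, since 596 genes were higher and 418 lower (58.8% higher, against 48.7%) when FPKM was rescaled without the mitochondrially encoded genes.

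**Figure D1:**
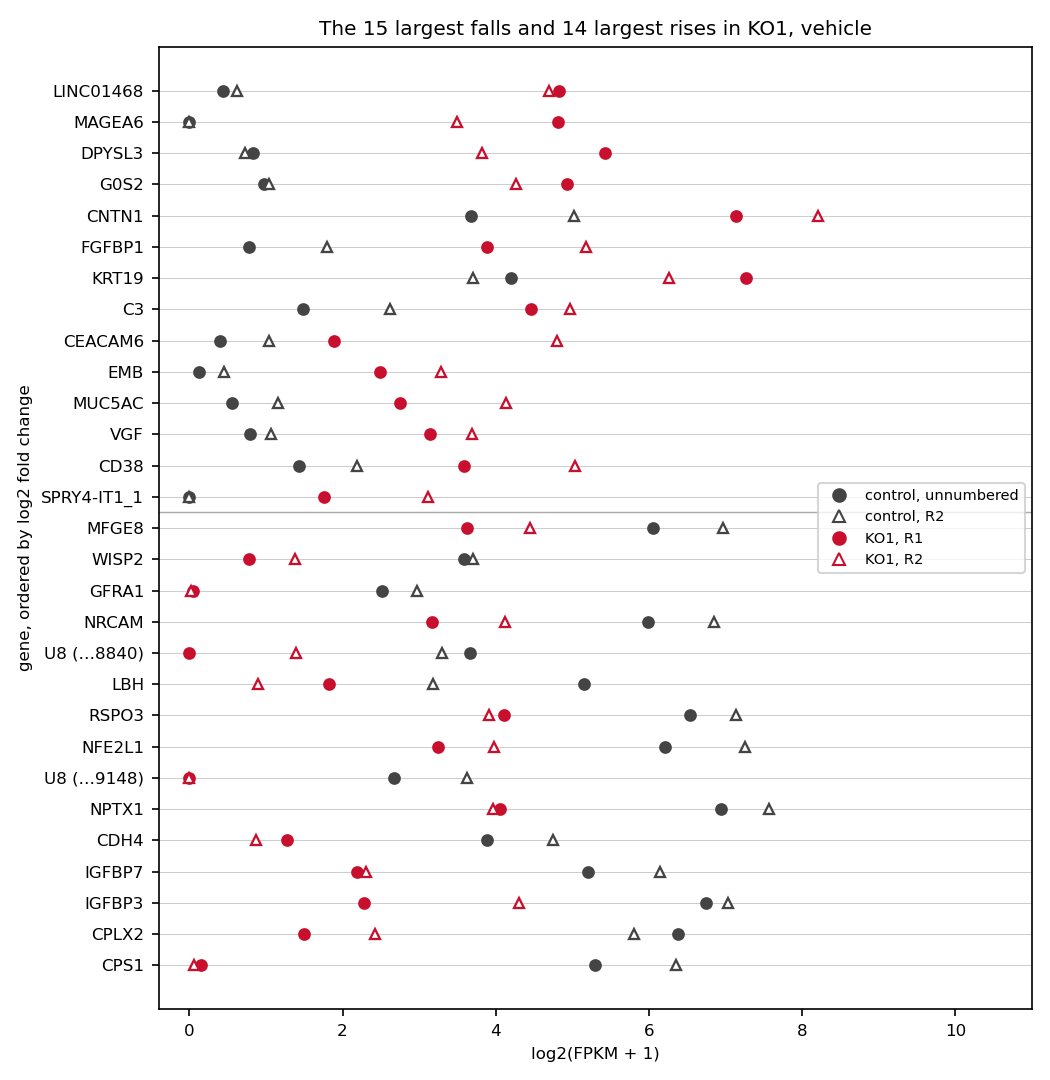
Each row is 1 of the 15 genes with the largest falls or the 14 with the largest rises, and each point is 1 library, in log2(FPKM + 1); grey marks the control and red KO1, filled circles the first pair and open triangles R2. The KO1 points lie on one side of the control points in every row, from LINC01468 (log2 fold change 4.22) at the top to CPS1 (-5.72) at the bottom.

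The largest fall was that of CPS1 (chromosome 2, 210477682 to 210679107), the mitochondrial carbamoyl phosphate synthetase that opens the urea cycle. It had 38.2 and 80.4 FPKM in the control and 0.11 and 0.0413 in KO1. This was a loss from 9508 and 15694 reads to 16 and 8, or to 0.289% and 0.0513% of the partner library. The log2 fold change was -5.72 (SE 0.27, limma adjusted p = 8.71e-06; 0.000312 without the block), and KO2 had 0.44 and 0.666 FPKM. ASS1, the enzyme of the next cytosolic step of the cycle, had 3.25 and 1.61 FPKM in the control and 1.82 and 0.494 in KO1 (-0.70, adjusted p = 0.0294), and these ranges overlapped. In the urea cycle and nitrogen list, 13 of 17 genes were tested. Of these 0 were called higher and 2 lower (15.4%, against 4.08% of all genes tested), and the median was -0.17.

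The other large falls included IGFBP3, IGFBP7 and RSPO3, which encode secreted proteins. IGFBP3, a carrier of insulin-like growth factors, had 106 and 130 FPKM in the control and 3.85 and 18.8 in KO1 (-3.59, SE 0.32, adjusted p = 0.000184). IGFBP7, a related secreted protein, went from 35.9 and 69.8 to 3.58 and 3.94 (-3.43). RSPO3, a secreted amplifier of Wnt signalling, went from 91.6 and 140 to 16.3 and 14.1 (-2.82). For all 3, both KO1 libraries lay below both control libraries. WISP2, a matricellular protein of the CCN family, fell by 2.56 on the log2 scale, and MFGE8, a bridging protein in the uptake of dying cells, by 2.48. NRCAM, a neuronal cell adhesion molecule, had 62.4 and 114 FPKM in the control and 7.99 and 16.4 in KO1 (-2.77, SE 0.16, adjusted p = 1.43e-05). CDH4, or R-cadherin, fell by 3.24, and GFRA1, the GDNF co-receptor, fell from 1085 and 1237 reads to 4 and 3. LBH, a transcription cofactor, had 34.5 and 8.07 FPKM in the control and 2.53 and 0.855 in KO1 (-2.81). Of these genes LBH and CPS1 lie on chromosome 2, whose genes were low as a whole, and MFGE8 on chromosome 15, where genes were low over part of the length (below). After centring on neighbouring genes, their log2 fold changes were -2.49, -5.24 and -2.29.

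Not every large fall was shared by the second knockout line. CPLX2, complexin 2, a regulator of vesicle fusion, had 82.0 and 55.0 FPKM in the control, 1.82 and 4.38 in KO1, against 80.8 and 83.8 for KO2. KO1 thus had a log2 fold change of -4.13 against the control (SE 0.35, adjusted p = 0.000115) and differed from KO2 by -4.42 (limma adjusted p = 0.00021). NPTX1, a secreted pentraxin of synapses, was low in both knockout lines. It had 122 and 189 FPKM in the control and 15.6 and 14.6 in KO1, while KO2 had 6.91 and 3.02. The remaining falls among the 15 largest were 2 U8 small nucleolar RNA copies of chromosome 10 (-3.14 for ENSG00000239148, -2.79 for ENSG00000238840). They had 17 to 37 reads in the control libraries and at most 4 in KO1, and the first lies inside AKR1C1 and the other inside AKR1C2, so their reads may be shared with those genes.

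The 4 largest rises were of genes at or near 0 in the control. LINC01468, a long noncoding RNA of chromosome 10 (52450874 to 52470533), had 0.357 and 0.545 FPKM in the control and 27.4 and 24.8 in KO1 (4.22, SE 0.20, adjusted p = 8.71e-06). MAGEA6, a cancer-testis gene of the X chromosome, had 0 reads in both control libraries and 27.0 and 10.3 FPKM in KO1. Against a floor of 3 reads in each control library it was at least 399-fold higher in the first pair and at least 119-fold higher in the R2 pair, although reads of the near-identical MAGEA3 may be shared with it. SPRY4-IT1_1, a smaller rise (2.44) also from 0 in both control libraries, had 3 and 13 reads in KO1 and lies opposite SPRY4. In bortezomib its log2 fold change was -0.64 (adjusted p = 0.483). DPYSL3, a cytoskeletal protein of growing axons, rose 54.1-fold and 20.2-fold in the 2 pairs, from 0.779 and 0.649 FPKM to 42.1 and 13.1. CNTN1, contactin 1, an axonal adhesion molecule, had 11.8 and 31.6 FPKM in the control and 140 and 294 in KO1 (3.32, SE 0.17, adjusted p = 1.04e-05; 2.83 after centring, since chromosome 12 was high as a whole). G0S2, an inhibitor of adipose triglyceride lipase, went from 0.97 and 1.05 FPKM to 29.5 and 18.2 (3.59).

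Other large rises included KRT19, MUC5AC and CEACAM6. KRT19, an intermediate filament protein of simple epithelia, had 17.4 and 12 FPKM in the control and 153 and 75.5 in KO1 (2.81, SE 0.22, adjusted p = 8.9e-05). MUC5AC, a gel-forming airway mucin, had 0.467 and 1.23 FPKM in the control and 5.71 and 16.5 in KO1 (2.58, adjusted p = 0.00625). For both genes, both KO1 libraries exceeded both control libraries. CEACAM6, an epithelial cell adhesion molecule of chromosome 19, varied widely between KO1 libraries, with 0.316 and 1.05 FPKM in the control, 2.71 and 26.9 in KO1 and 40.5 and 355 for KO2 (KO1 against control 2.63, SE 0.57, adjusted p = 0.0214, and 3.05 after centring). FGFBP1, a carrier of fibroblast growth factors, rose by 3.25. EMB, a chaperone of monocarboxylate transporters, rose by 2.60. CD38, an NAD-consuming surface enzyme, rose by 2.49, as did VGF, a neuropeptide precursor (2.49). C3, the central complement component, is described with its pathway below.

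Genes of some chromosomes moved together, a pattern chosen after its values were seen. On chromosome 2 the median log2 fold change of 769 tested genes was -0.36, 88.6% were below 0, and 134 genes were called lower against 12 higher. On chromosome 12 the median of 680 genes was 0.37, 91.2% were above 0, and 107 were called higher against 4 lower. Chromosome 18 had a median of 0.47 over 159 genes, 93.7% above 0, with 40 called higher and 1 lower. These shifts ran along the whole chromosome. In windows of 10 Mb the medians were -0.48 to -0.21 in 25 windows of chromosome 2 and 0.30 to 0.48 in 14 of chromosome 12. They were 0.38 to 0.61 in 9 of chromosome 18, where the thinnest window held 2 genes. In the first pair and the R2 pair alone, the chromosome medians were -0.34 and -0.38 for chromosome 2, 0.40 and 0.35 for chromosome 12, and 0.52 and 0.41 for chromosome 18.

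**Figure D2:**
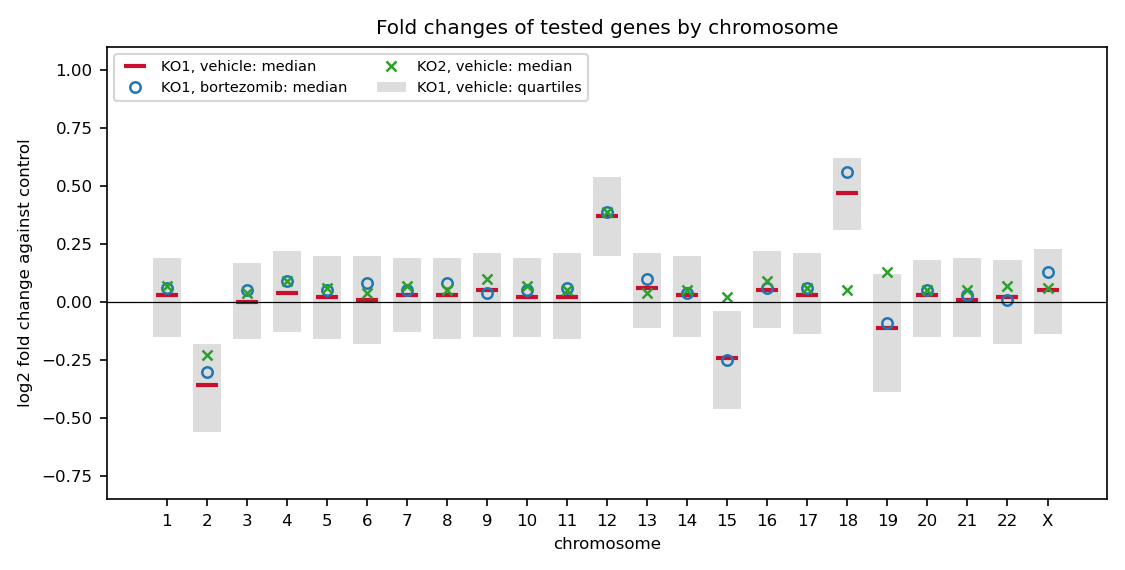
Log2 fold changes of the tested genes by chromosome: grey bars span the quartiles and red dashes mark the medians of KO1 against control in vehicle, blue circles the KO1 medians in bortezomib and green crosses the KO2 medians in vehicle. Chromosomes 2 (-0.36), 12 (0.37), 15 (-0.24), 18 (0.47) and 19 (-0.11) depart from the others, whose medians run from 0.00 to 0.06.

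Chromosomes 15, 19 and X shifted over part of their length. Chromosome 15 had a median of -0.24 over 404 genes, but the 69 genes between 40 and 50 Mb had a median of 0.02 and the 335 genes outside it one of -0.29. On chromosome 19 the 352 genes up to 20 Mb had a median of 0.07 and the 481 beyond it one of -0.28, with 58 called lower. The medians of the other 18 chromosomes among 1 to 22 and X lay between 0.00 and 0.06, but the first 10 Mb of X, with 25 tested genes, had a median of 0.66 and 12 genes called higher. That stretch had medians of 0.74 for KO1 in bortezomib and 0.21 for KO2 in vehicle, and the 379 genes of X beyond it had one of 0.04 in this comparison. Chromosomes 12 and 18 thus held 31.1% of the genes called higher, with 6.88% of the genes tested, and chromosomes 2, 15 and 19 held 49.0% of those called lower, with 16.5% of the genes tested. The 5 chromosomes held 51.4% of the 621 calls under 1 in size and 30% of the 350 larger ones, against 23.3% of the genes tested.

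The bortezomib libraries of the same lines, which share no library with this comparison, had medians of -0.30, 0.39, -0.25, 0.56 and -0.09 on chromosomes 2, 12, 15, 18 and 19. In KO2 against the same vehicle controls they were -0.23, 0.39, 0.02, 0.05 and 0.13. When each gene was centred on the 25 tested genes on either side of it, 594 genes were called, 250 higher and 344 lower (4.87%). Of the 971 calls, 500 kept their call and direction and 471 did not. The part of DNA copy number in these shifts was not tested, and most named genes of these chromosomes are given below with their centred value as well.

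**Figure D3:**
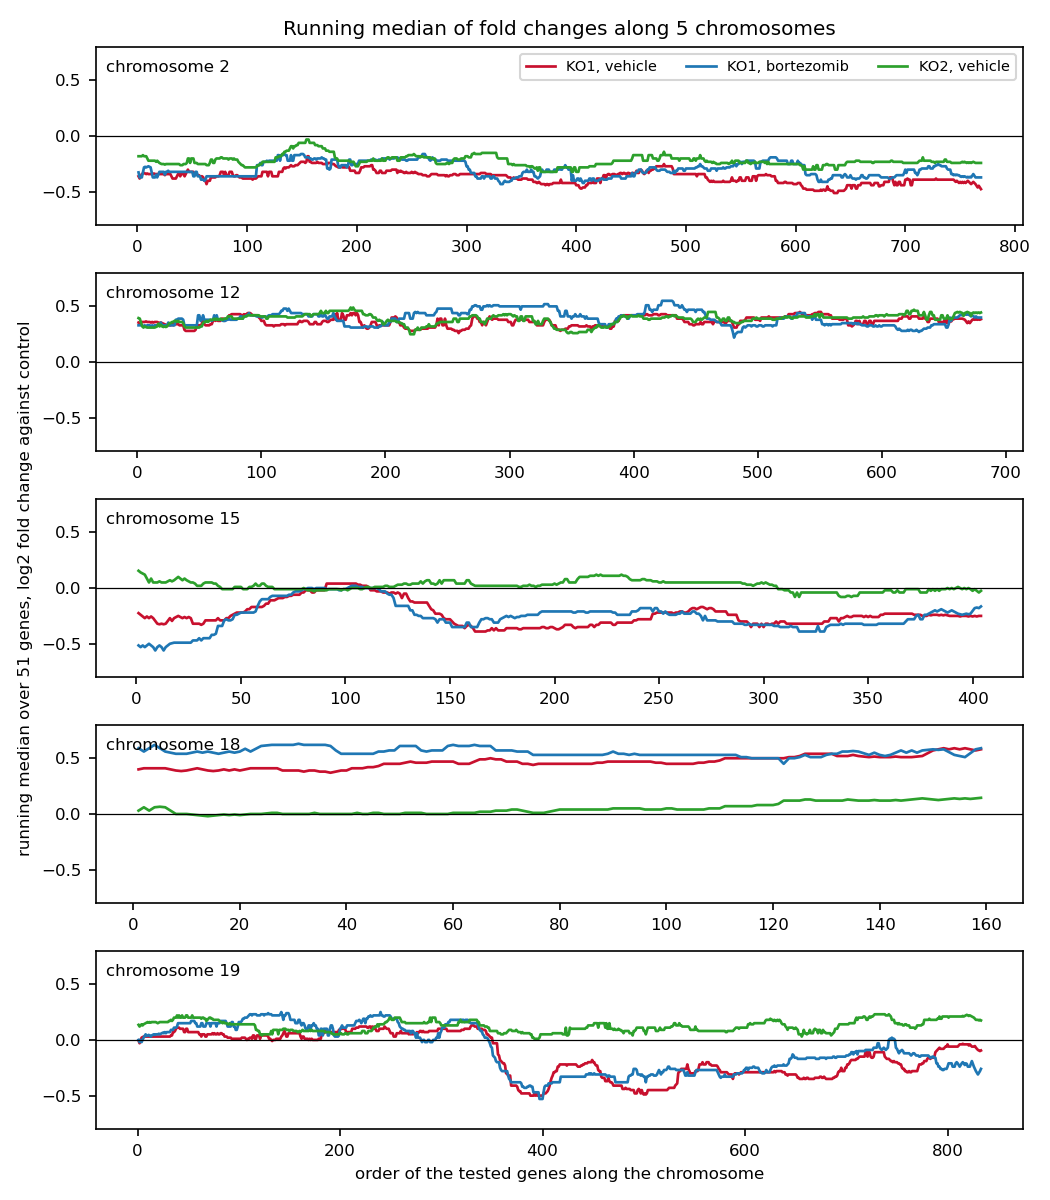
Running medians over 51 neighbouring tested genes of the log2 fold change against control (y axis), in the order of genes along chromosomes 2, 12, 15, 18 and 19 (x axis), for KO1 in vehicle (red), KO1 in bortezomib (blue) and KO2 in vehicle (green). The red and blue lines leave 0 over the same stretches, with a stretch at 0 within chromosome 15 and a step on chromosome 19 after the 352 genes up to 20 Mb.

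Proteasome subunit genes were slightly lower in KO1, mostly below the threshold of single genes. Of 33 listed subunits 31 were tested (PSMA2 and PSMA6 did not pass the filter); 30 had a log2 fold change below 0, against 47.7% of all genes tested, and the median was -0.37, with -0.21 in the first pair and -0.52 in the R2 pair. The shift was seen in every layer of the particle: medians were -0.34 for 5 subunits of the 20S alpha ring, -0.43 for 7 of the beta ring, -0.40 for 6 ATPases of the 19S cap and -0.35 for 13 other cap subunits. In all, 0 were called higher and 3 lower (9.68%, against 4.08% of all genes tested), and without the block 0 were called and 0 had an unadjusted p under 0.05. The median ran from -0.56 without KO1 R1 to -0.15 without KO1 R2. ADRM1, a ubiquitin receptor of the cap, was the 1 subunit above 0 (0.11, adjusted p = 0.726).

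The 3 called subunits all belong to the 19S cap and lie on shifted chromosomes. PSMC4, an ATPase, had 112 and 53.7 FPKM in the control and 67.8 and 25.1 in KO1 (-0.89, SE 0.17, adjusted p = 0.0121). PSMD14, the deubiquitinase of the lid, had 19.1 and 7.94 against 11.5 and 3.29 (-0.87, SE 0.16, adjusted p = 0.0097). PSMD8, another lid subunit, had 85 and 39.2 against 55.6 and 20.6 (-0.75, SE 0.17, adjusted p = 0.0234). In each case KO1 was below its partner in both pairs, but the ranges of the lines overlapped, because the R2 libraries were lower in both lines. After centring, PSMD14 was called (-0.63, adjusted p = 0.0289), while PSMC4 (-0.49, adjusted p = 0.127) and PSMD8 (-0.61, adjusted p = 0.0627) were not. The median of all 31 subunits after centring was -0.43. In bortezomib, the KO1 median was -0.49 and 11 of the 31 subunits were called lower (6.54% of all genes were called lower there), namely PSMA4, PSMC3, PSMC4, PSMC6 and 7 other cap subunits. In KO2 with vehicle the median was -0.09.

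**Figure D4:**
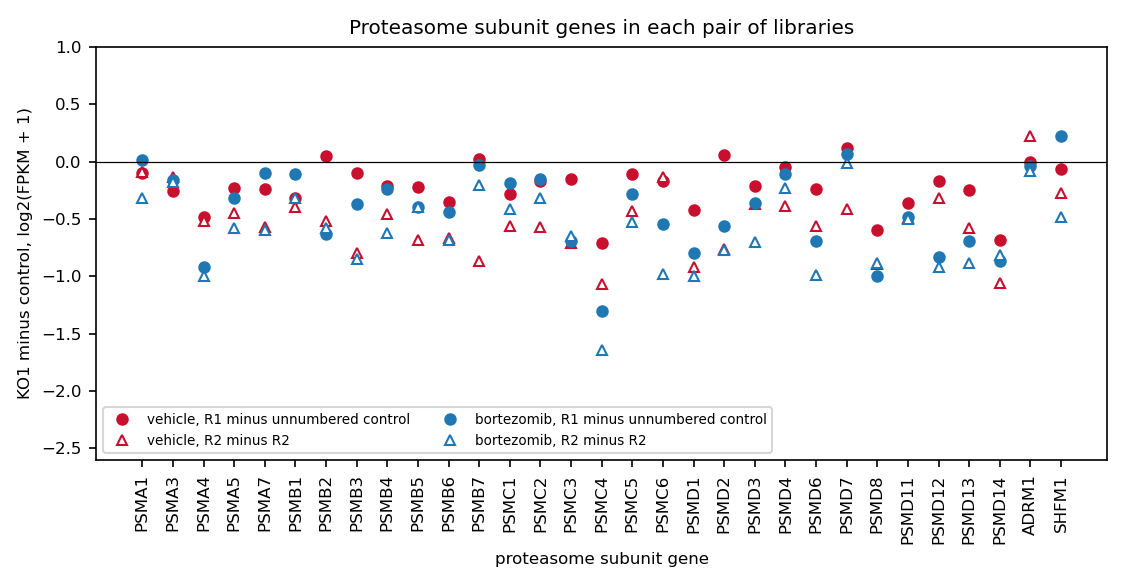
Difference between KO1 and control in log2(FPKM + 1), y axis, for each of the 31 tested proteasome subunit genes, x axis; red marks vehicle and blue bortezomib, circles the first pair and triangles the R2 pair. Most red points lie between 0 and -1, with medians of -0.21 (first pair) and -0.52 (R2 pair).

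The 250 bases upstream of the start site are shown for the 3 called subunits and for AKR1C1, a called target of NRF2, because antioxidant response elements of such promoters are where NFE2L1 and NRF2 are known to bind. Capitals mark the letters TGANNNNGC, a loose form of the core of that element with the middle letters left free, or the reverse GCNNNNTCA. The sequences are from RefSeq (GRCh38.p14), 5′ to 3′ on the gene's strand, and lie at chr19:39970915-39971164 (PSMC4), chr19:38374321-38374570 (PSMD8), chr2:161308175-161308424 (PSMD14) and chr10:4963165-4963414 (AKR1C1), all on the plus strand.
PSMC4: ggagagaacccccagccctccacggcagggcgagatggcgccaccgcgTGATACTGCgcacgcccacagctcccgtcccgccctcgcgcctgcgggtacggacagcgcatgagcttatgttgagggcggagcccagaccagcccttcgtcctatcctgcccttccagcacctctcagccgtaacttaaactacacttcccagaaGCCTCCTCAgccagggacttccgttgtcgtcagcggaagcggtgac
PSMD8: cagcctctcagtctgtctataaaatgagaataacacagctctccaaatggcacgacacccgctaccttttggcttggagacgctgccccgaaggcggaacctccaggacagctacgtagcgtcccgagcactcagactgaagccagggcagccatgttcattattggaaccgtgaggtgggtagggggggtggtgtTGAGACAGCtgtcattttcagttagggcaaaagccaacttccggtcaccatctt
PSMD14: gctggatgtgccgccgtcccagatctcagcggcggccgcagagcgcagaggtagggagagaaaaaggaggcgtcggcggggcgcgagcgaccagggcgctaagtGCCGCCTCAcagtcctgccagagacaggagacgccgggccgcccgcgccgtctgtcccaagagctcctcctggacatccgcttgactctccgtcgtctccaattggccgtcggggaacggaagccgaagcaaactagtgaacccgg
AKR1C1: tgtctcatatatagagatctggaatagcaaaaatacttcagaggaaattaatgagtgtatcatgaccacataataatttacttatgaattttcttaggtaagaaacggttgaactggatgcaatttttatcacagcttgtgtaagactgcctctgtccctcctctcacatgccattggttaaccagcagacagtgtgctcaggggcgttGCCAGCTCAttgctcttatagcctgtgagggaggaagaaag
PSMC4 had 2 such matches in this stretch and the others 1 each, while both windows of AKR1C3, another called target of NRF2, had 0. With the bases after the start site, the PSMC4 window held 3. In windows of 300 bases (250 before to 50 after the start), searched on both strands, the letters were in 22 of 37 windows of 28 matched subunit genes (59.5%) and in 15 of 27 windows of NRF2 targets (55.6%). They were in 41.8% of all 35116 windows, in 40.2% of those of genes called higher and in 42.0% of those of genes called lower. A match is a description of the letters and not a binding site.

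Among 8 tested CNC and MAF factors, 0 were called higher and 3 lower (37.5%, against 4.08% of all genes tested), with a median of -0.14. These were NFE2L1 itself, MAFK and NFE2L2. The share includes the targeted gene, whose fall was set by the design, so it is no result about the list. After centring limma called 1 of the 8, NFE2L1. MAFK, a small MAF partner, had 39.6 and 31.9 FPKM in the control and 15.5 and 23.2 in KO1, with no overlap (-0.87, SE 0.21, adjusted p = 0.0336). After centring MAFK was at -0.89 and was not called (adjusted p = 0.0622). NFE2L2, on chromosome 2, had 15.3 and 7.36 against 10.4 and 4.56 (-0.55, adjusted p = 0.0419; -0.22 and adjusted p = 0.382 after centring). None of the 16 genes for the processing of NFE2L1 was called by limma (median 0.00), and they ran from DDI2, its protease, at 0.40 (adjusted p = 0.136) to UBXN4, on chromosome 2, at -0.61 (adjusted p = 0.113; -0.34 after centring). Of 17 tested proteasome assembly factors and partners, 1 was called higher (5.88%, against 3.88% of all genes tested) and 0 lower (median -0.09). It was PSMB8, an immunoproteasome subunit, with 4.21 and 2.00 FPKM in the control and 10.5 and 3.54 in KO1 (0.87, adjusted p = 0.0356). The ranges of PSMB8 overlapped, and after centring it was at 0.72 and was not called (adjusted p = 0.116). POMP, the maturation factor of the 20S particle, was the lowest of this list (-0.40, adjusted p = 0.26).

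Most targets of NRF2 had values below the control in KO1, and 8 passed the test. Of 32 tested, 0 were called higher and 8 lower (25%, against 4.08% of all genes tested), 28 were below 0 (47.7% of all genes tested were) and the median was -0.48. Without the block 0 were called and 4 had an unadjusted p under 0.05. After centring 8 of the 32 were called lower, among them 5 of the first 8. AKR1C2, PGD and EPHX1 were no longer called (adjusted p = 0.081, 0.108 and 0.0549). The aldo-keto reductases led the list. AKR1C1, an enzyme of steroid and aldehyde reduction, had 54.3 and 20 FPKM in the control and 6.23 and 8.47 in KO1 (-2.04, SE 0.35, adjusted p = 0.00794). AKR1C3 had 254 and 97.9 against 77.2 and 46.7 (-1.38) and AKR1C2 had 320 and 131 against 89.5 and 76.4 (-1.30). For these 3 genes, KO1 was below the control in all libraries, but they overlap each other on chromosome 10 and share sequence, so reads may be split between them. HMOX1, heme oxygenase 1, had 147 and 47.1 FPKM in the control and 20.7 and 18.5 in KO1 (-2.03, SE 0.37, adjusted p = 0.0097). The other calls were PRDX1, a peroxiredoxin (-0.94), AKR1B1, aldose reductase (-0.84), EPHX1, a microsomal epoxide hydrolase (-0.71), and PGD, an enzyme of the pentose phosphate pathway (-0.62). GPX2, a glutathione peroxidase, was the highest of the list, with 30.5 and 26.3 against 36.5 and 49.1 FPKM (0.56, adjusted p = 0.365). In bortezomib the KO1 median was -0.21 and 20 of the 32 were below 0. There 6 were called lower and 1 higher (6.54% and 6.3% of all genes were). In KO2 with vehicle the median of the 32 was 0.08, and AKR1C1 had 30.5 and 30 FPKM there.

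Most cholesterol synthesis genes had values above the control in KO1, and few passed the test. Of 22 tested, 5 were called higher (22.7%, against 3.88% of all genes tested) and 1 lower, 20 were above 0 (52.3% of all genes tested were), and the median was 0.42, with 0.15 in the first pair and 0.72 in the R2 pair. HMGCS1, the synthase upstream of HMG-CoA reductase, had 19.2 and 10.7 FPKM in the control and 27.9 and 29.9 in KO1 (0.96, adjusted p = 0.0189), with no overlap. MSMO1, an enzyme of the sterol branch (0.71), and SREBF2, the transcription factor of the pathway (0.60), were also called, with overlapping ranges. PMVK, phosphomevalonate kinase, was called lower (-0.66, adjusted p = 0.0485). After centring 2 were called higher and 1 lower, and without the block 0 were called and 2 had an unadjusted p under 0.05. In the bortezomib libraries the median was 0.30 and limma called 0 of the 22.

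**Figure D5:**
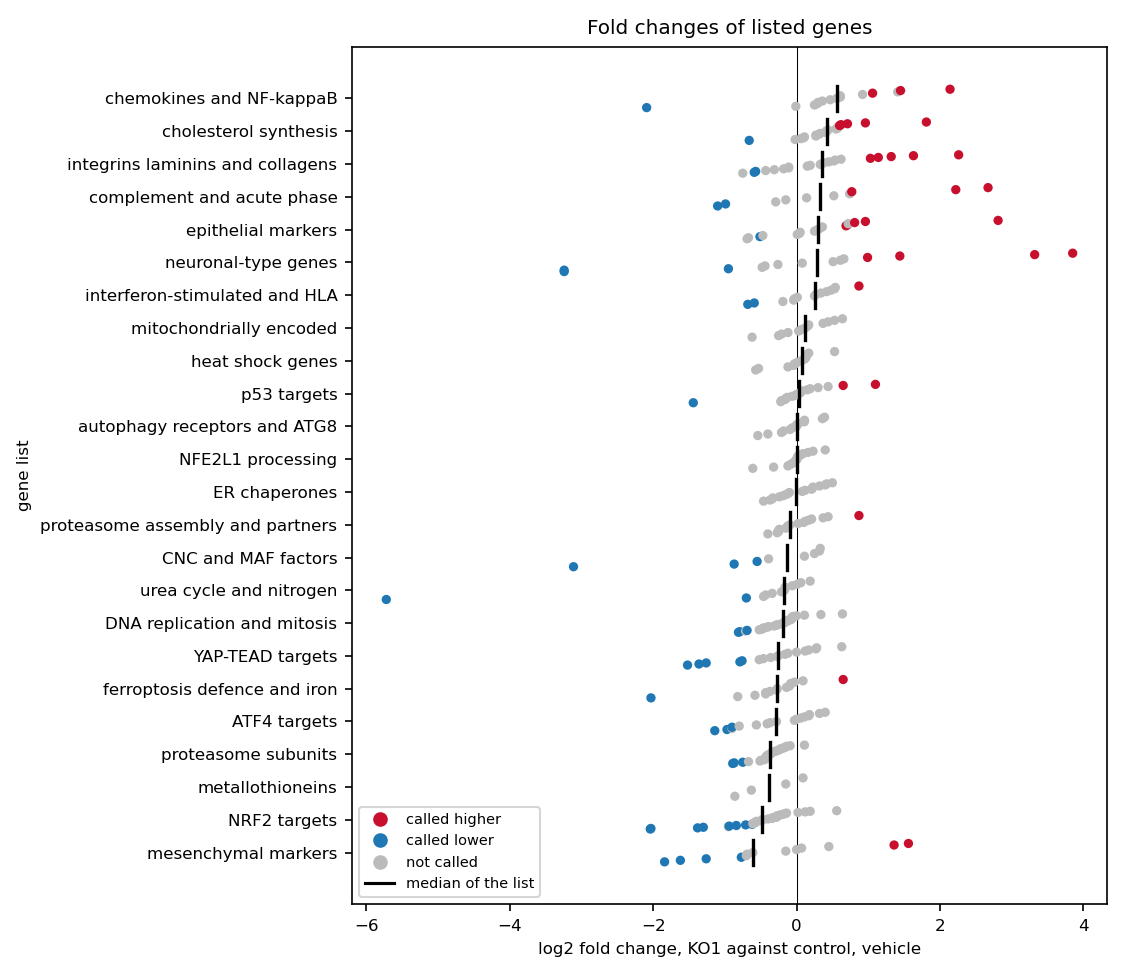
Log2 fold change of each tested gene (x axis) by gene list (y axis), KO1 against control in vehicle; red points were called higher, blue lower and grey not called, and black bars mark list medians. Lists with under 4 tested genes and the line markers are left out; the medians shown run from -0.61 (mesenchymal markers) to 0.56 (chemokines and NF-kappaB).

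Among stress pathways, calls were made for ATF4 targets and not for heat shock or ER chaperone genes. Of 17 ATF4 targets, 0 were called higher and 3 lower (17.6%, against 4.08% of all genes tested), and these were a receptor and both chains of an amino acid transporter. The list median was -0.28, with -0.28 in the first pair and 0.03 in the R2 pair. VLDLR, a lipoprotein receptor, had 6.75 and 9.16 FPKM in the control and 2.28 and 3.95 in KO1 (-1.14, SE 0.13, adjusted p = 0.000715). SLC7A5, the light chain of the large neutral amino acid transporter, had 801 and 1220 against 357 and 784 (-0.90), and SLC3A2, its heavy chain, 277 and 386 against 110 and 250 (-0.97). For all 3, KO1 lay below the control in every library. DDIT3, or CHOP, on chromosome 12, was the highest of the list (0.40, adjusted p = 0.435; -0.01 after centring). By limma 0 of 13 heat shock genes were called (median 0.07, from HSPD1 at -0.57 on chromosome 2, or -0.19 after centring, to HSPH1 at 0.53). The same held for 0 of 18 ER chaperones (median -0.01, from CRELD2 at -0.46 to HYOU1 at 0.50), and the sign of both medians depended on the scaling or the libraries kept. The 4 tested metallothionein-list genes had 0 calls (median -0.39, from MT1A at -0.86 to MTF1 at 0.09), as had 13 genes of autophagy receptors and ATG8 (median 0.00, from GABARAPL1 at -0.54 to OPTN at 0.39) and 13 mitochondrially encoded genes (median 0.12, from MT-ND3 at -0.62 to MT-CYB at 0.64). The median of the mitochondrially encoded genes was -0.24 in the first pair and 0.37 in the R2 pair. Of 15 genes of ferroptosis defence and iron, HMOX1 was called lower (6.67%, against 4.08% of all genes tested). LPCAT3, a lysophospholipid acyltransferase of chromosome 12, was called higher (6.67%, against 3.88%). It was at 0.65 (adjusted p = 0.0168), or 0.25 (adjusted p = 0.377) after centring. The list median was -0.27.

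Of 18 tested epithelial markers, 5 were called higher (27.8%, against 3.88% of all genes tested) and 1 lower (5.56%, against 4.08%). The median was 0.30. After centring 3 were called higher and 1 lower, and the median was 0.13. CDH1, or E-cadherin, had 1.75 and 3.74 FPKM in the control and 3.69 and 9.53 in KO1 (0.96, SE 0.18, adjusted p = 0.0109). DSP, desmoplakin of desmosomes, had 13.2 and 12.3 against 23.5 and 22.8 (0.81, adjusted p = 0.0225), with no overlap. KRT18, a simple epithelial keratin of chromosome 12, had 194 and 147 against 353 and 212 (0.69, adjusted p = 0.041; 0.34 and adjusted p = 0.321 after centring). OCLN, a tight junction protein, rose by 0.71, and TJP1, on chromosome 15, was called lower (-0.51, adjusted p = 0.0386; -0.32 and adjusted p = 0.305 after centring). KRT81, the lowest of the list, was not called (-0.69, adjusted p = 0.0795), although it was after centring (-1, adjusted p = 0.00968).

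Mesenchymal markers moved both ways. Of 13 tested, 2 were called higher (15.4%, against 3.88% of all genes tested) and 4 lower (30.8%, against 4.08%). The median was -0.61, or -0.16 after centring. TGFBI, a TGF-beta-induced matrix protein, had 403 and 464 FPKM in the control and 107 and 183 in KO1 (-1.62, adjusted p = 0.00367). Both KO1 libraries lay below both control libraries. SNAI1, a repressor of E-cadherin, had 9.84 and 1.97 against 2.05 and 0.831 (-1.26, adjusted p = 0.0419), with overlap, and SPARC, a matricellular protein, had 1.76 and 1.47 against 0.552 and 0.524 (-0.77), while KO2 had 26.6 and 29.9. CDH2, or N-cadherin, on chromosome 18, rose from 11.9 and 17.1 FPKM to 42.3 and 46.0 (1.56, adjusted p = 0.000835; 1.02 and adjusted p = 0.0185 after centring). TWIST1, a transcription factor of mesenchyme, rose from 0.888 and 0.736 to 4.82 and 2.70 (1.36, adjusted p = 0.00741).

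Among 22 integrins, laminins and collagens, 5 were called higher (22.7%, against 3.88% of all genes tested) and 2 lower (9.09%, against 4.08%). The median was 0.35. After centring 3 were called higher and 1 lower, and the median was 0.21. Of the first calls, 2 of the higher and 0 of the lower were kept. LAMB3, a chain of the laminin of hemidesmosomes, had 11.2 and 12 FPKM in the control and 53.5 and 65.4 in KO1 (2.26, SE 0.24, adjusted p = 0.000528). ITGB4, a subunit of the hemidesmosomal laminin receptor, had 16.6 and 45.1 against 48.6 and 101 (1.32, adjusted p = 0.00121). Both genes were above the control in every KO1 library. ITGA2 (1.14), a collagen receptor subunit, and ITGA5 (1.03, chromosome 12), a fibronectin receptor subunit, were also called higher. After centring they were at 0.98 (adjusted p = 0.0509) and 0.66 (adjusted p = 0.0857). ITGB5 (-0.57) and ITGAV (-0.59, chromosome 2), subunits of vitronectin receptors, were called lower. After centring these 2 genes were at -0.55 (adjusted p = 0.0945) and -0.22 (adjusted p = 0.528). COL1A1 was the lowest (-0.75, adjusted p = 0.376) and the 1 tested fibroblast marker.

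Genes typical of neurons were called often and in both directions. Of 14 tested, 4 were called higher (28.6%, against 3.88% of all genes tested) and 3 lower (21.4%, against 4.08%). The median was 0.29. DPYSL3 and CNTN1 rose and NPTX1 and CDH4 fell, as given above. SEMA3A, a secreted repellent of axons, had 2.15 and 6.83 FPKM in the control and 9.16 and 16.8 in KO1 (1.44, adjusted p = 0.00711). SYT1, the calcium sensor of synaptic vesicles on chromosome 12, rose by 0.99 (0.52 and adjusted p = 0.0397 after centring), and MAP1B, a microtubule-associated protein, fell by 0.95. The list was chosen with these genes' changes already known, so its counts are no support for a direction.

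Complement genes split by component. Of 10 tested complement and acute phase genes, 3 were called higher (30%, against 3.88% of all genes tested) and 2 lower (20%, against 4.08%). The median was 0.33. C3 had 1.79 and 5.12 FPKM in the control and 21.0 and 30.3 in KO1 (2.67, SE 0.19, adjusted p = 4.78e-05; 2.72 after centring), with no overlap, and C5 was called as well (0.77). The proteases of the C1 complex fell: C1R had 8.31 and 12.9 FPKM in the control and 3.12 and 5.83 in KO1 (-1.1, adjusted p = 0.00117), and C1S 21.5 and 37.5 against 9.33 and 20.1 (-0.99, adjusted p = 0.00643). Both lie on chromosome 12, against whose shift they fell, with centred log2 fold changes of -1.52 and -1.44.

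CXCL chemokines were higher and IL11 lower. Of 15 tested chemokines and NF-kappaB genes, 3 were called higher (20%, against 3.88% of all genes tested) and 1 lower (6.67%, against 4.08%). The median was 0.56. CXCL5, a neutrophil attractant, had 47.5 and 201 FPKM in the control and 369 and 513 in KO1 (2.14, SE 0.38, adjusted p = 0.0097). CXCL1 had 1.17 and 7.01 against 9.28 and 11.6 (1.45) and CXCL2 had 2.13 and 6.49 against 7.88 and 10.4 (1.06). All 3 lie on chromosome 4, and KO1 exceeded the control in every library. IL11, a cytokine of the interleukin-6 family on chromosome 19, had 17.1 and 27.1 against 4.96 and 3.73 (-2.09, adjusted p = 0.00475; -1.81 after centring). Of 14 interferon-stimulated and HLA genes, 1 was called higher (7.14%, against 3.88% of all genes tested) and 2 lower (14.3%, against 4.08%). Among them were IFIT3 (0.87) and IFI6 (-0.59), and the list median was 0.26. After centring limma called 0 of the 14 and the median was 0.00.

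YAP-TEAD targets had 5 genes called lower (27.8%, against 4.08% of all genes tested) and 0 higher of 18 tested, with a median of -0.26. CTGF, a secreted matricellular protein, had 22.6 and 35.3 FPKM in the control and 9.18 and 9.17 in KO1 (-1.52, SE 0.22, adjusted p = 0.00302), and the related CYR61 had 71.6 and 145 against 34.3 and 44.5 (-1.36, adjusted p = 0.0108). KO1 was below the control in every library for both. DLC1, a GTPase-activating protein, fell from 705 and 205 reads to 10 and 5 (-1.26), FOXF2, a forkhead factor, by 0.79, and CRIM1, on chromosome 2, by 0.76 (-0.47 and adjusted p = 0.263 after centring). PTPN14, an inhibitor of YAP, was the highest (0.63, adjusted p = 0.106).

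Growth genes mostly had values slightly below the control, and few were called. Of 30 tested genes of DNA replication and mitosis, 26 were below 0, against 47.7% of all genes tested. The median was -0.19, with -0.05 in the first pair and -0.35 in the R2 pair. By limma 0 were called higher and 3 lower (10%, against 4.08% of all genes tested). These were MCM6, a helicase subunit (-0.79), BUB1, a checkpoint kinase (-0.81), and CCNB2, a mitotic cyclin (-0.69). All 3 lie on chromosome 2 or 15, and limma called 0 of the 30 after centring. The centred median was -0.27, with 27 of the 30 below 0. In bortezomib the KO1 median was 0.03, with 13 of the 30 below 0. TYMS, thymidylate synthase, on chromosome 18, was the highest (0.64, adjusted p = 0.0668; 0.18 after centring). Of 18 p53 targets, PMAIP1, or NOXA, on chromosome 18, had 4.58 and 3.21 FPKM in the control and 12.5 and 6.97 in KO1 (1.1, adjusted p = 0.00308; 0.54 and adjusted p = 0.066 after centring). MDM2, on chromosome 12, was also called higher (0.65, adjusted p = 0.0473, and 0.22 after centring). TP53I3, on chromosome 2, was called lower (-1.44, adjusted p = 0.00323, and -1.08 with adjusted p = 0.0235 after centring). Of this list 11.1% were thus called higher and 5.56% lower, against 3.88% and 4.08% of all genes tested. The list median was 0.03. Of the 7 tested line markers, ALDH1A1, a retinal dehydrogenase, had 1850 and 778 FPKM in the control and 805 and 468 in KO1 (-0.96, adjusted p = 0.0106). AKR1C1 was the other one called lower (28.6% of the 7, against 4.08% of all genes tested). KRT18 was the one called higher (14.3%, against 3.88%).

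The vehicle changes were then set beside those of the same lines in bortezomib, where 1565 genes (12.8%) were called, 768 higher (6.3%) and 797 lower (6.54%). Of the 473 genes called higher in vehicle, 450 (95.1%) were also higher in bortezomib and 299 (63.2%) were called so, which is 38.9% of the higher calls there. Of the 498 called lower, 480 (96.4%) had the same direction and 280 (56.2%) were called, 35.1% of the lower calls in bortezomib. In the opposite direction 1 and 0 were called. The share with the same direction over all genes tested is not given here. Across those genes, the log2 fold changes in vehicle and bortezomib correlated with a Pearson r of 0.622. The same lines were compared in both treatments, so a lasting difference between them would recur. Both comparisons used 1 estimate of each gene's spread from all 12 libraries, so their calls are not independent. A test of the difference between the 2 changes called 0 genes by limma, although the lowest adjusted p was 0.0626 and 1190 genes had p under 0.05 before adjustment; voom called 35 genes on recovered reads. Among named genes, CXCL1 had log2 fold changes of 1.45 in vehicle and 4.35 in bortezomib and CXCL2 1.06 and 3.13. IL11 had -2.09 in vehicle and 0.72 in bortezomib (adjusted p = 0.188). The differences between treatments were 2.90, 2.07 and 2.80 for the 3 genes (limma adjusted p = 0.0709, 0.0709 and 0.108).

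KO1 and KO2 share the vehicle controls, so their values are only set side by side. KO1 differed from KO2 at 303 genes (2.48%) in vehicle, 141 higher (1.16%) and 162 lower (1.33%) in KO1. KO2 differed from the control at 596 genes (4.89%), 333 higher (2.73%) and 263 lower (2.16%). Of the genes called for KO1 against control, 90 of the higher (19%) and 81 of the lower (16.3%) also differed from KO2. Both tests use the same KO1 libraries, so these shares are not independent of the calls. KRT19 and EMB were close in both knockout lines, and their differences, KO1 minus KO2, were -0.21 (SE 0.22) and -0.15 (SE 0.21). CPS1 was under 1 FPKM in both lines, but lower in KO1 (0.11 and 0.0413) than in KO2 (0.44 and 0.666). Its difference of -0.53 (SE 0.27) is on log2(FPKM + 1), which flattens such low values. Against the control, KO2 had log2 fold changes of -5.19 (CPS1), 3.02 (KRT19) and 2.75 (EMB). G0S2 (3.59 and 0.91), C3 (2.67 and 0.20) and NRCAM (-2.77 and -0.41) had a larger log2 fold change in KO1, given first, than in KO2, with differences of 2.68, 2.47 and -2.36 between the lines (limma adjusted p = 0.00021, 0.000192 and 9.17e-05).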

How the data were processed

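RNA-seq values of 12 libraries (6 groups of 2) were read from 1 table of FPKM values that the authors deposited, with 0 other columns of samples. The submitters' processing notes name CASAVA, STAR 2.5, HTSeq 0.6.1, DESeq2 and hg19, without their roles; the table's gene positions match GENCODE 29 on GRCh38 for 95.2% of genes, so coordinates are GRCh38. Whether counting used strand is not given in the sources used here. FPKM times gene length gave whole reads (within 0.05 read), from which depth was computed. Reads are not independent molecules, and with 3 reads taken as a floor, fold bounds cover counting error only.

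Genes whose FPKM averaged 1 or more across the 12 libraries entered the test, run with limma 3.58.1 (R 4.3.3) on log2(FPKM + 1), with 6 group means, the pair as a block and a mean-variance trend (5 residual degrees of freedom); fold changes on this scale understate those of low genes. All p-values in the report not otherwise named are limma's, two-sided and Benjamini-Hochberg adjusted over all 12194 genes, with a threshold of 0.05. Exact permutation of 2 against 2 libraries cannot go below p = 0.333. The pairing follows the titles; deviations from group means correlated between same-pair libraries with r of 0.696 to 0.89 over 15 pairs of groups, and 0.809 for control and KO1 in vehicle. The filter used all groups, so a gene may pass through another group. The fit was also run on simulated counts with a pair effect built in and a small fixed spread. That run cannot check the choice of the block.

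Named genes were NFE2L1, the 15 largest called rises and falls whose lines did not overlap, every called gene of 28 lists, and the highest and lowest gene of each list. The members and lists were chosen with earlier results of these data known. Alternatives were other blocks, pseudocounts, filters and scalings, voom on recovered reads, and leaving out each library. Centring took up to 25 tested genes on each side and their deviations from their own means over the 12 libraries. The median of these deviations in each library was subtracted. Python 3.11.15, numpy 2.4.6, pandas 2.3.3 and matplotlib 3.10.9 were used. Some genes that the rule names are not reported here.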

Additional observations from a re-analysis of the deposited data

Results flagged for a closer look

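For 32 of the 123 named genes KO1 differed from KO2, by limma's test of the difference between the 2 lines in vehicle. The threshold was an adjusted p under 0.05 over all genes tested, with the block, and 303 of all genes tested (2.48%) passed it. Most named genes were picked by their KO1 vehicle values. The test reuses those KO1 libraries, so the count is no independent support. The values below are log2 differences, KO1 minus KO2, and the controls cancel out of them.

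NFE2L1 itself was lower in KO1 (-1.09). Among the large rises, KO1 exceeded KO2 for MAGEA6 (2.76), G0S2 (2.68), C3 (2.47), LINC01468 (1.80), CD38 (1.70), VGF (1.58) and CNTN1 (0.89), and it was below KO2 for CEACAM6 (-3.58). Among the large falls, KO1 was below KO2 for the U8 copies ENSG00000239148 (-5.36) and ENSG00000238840 (-4.35), and for CPLX2 (-4.42), NRCAM (-2.36), LBH (-1.94), IGFBP7 (-1.43) and GFRA1 (-0.96).

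Among listed genes, KO1 was lower for the cap subunits PSMC4 (-0.88) and PSMD8 (-0.80), for AKR1C1 (-1.92), AKR1C3 (-1.75) and AKR1C2 (-1.35), and for SPARC (-4.25), ALDH1A1 (-1.18) and KRT18 (-0.86). It was higher for the chemokines CXCL5 (2.01), CXCL1 (1.59) and CXCL2 (1.55), and for TWIST1 (1.19), LAMB3 (1.15), CDH2 (1.02), ITGA5 (0.89) and C1S (0.79).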

How the results depend on the processing

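Calls depended most on the block for pairs. Without it, 26 genes were called for KO1 against control in vehicle (971 with it), 13 in bortezomib (1565), 28 for KO2 against control (596) and 8 for KO1 against KO2 (303); voom without the block called 34, 18, 21 and 2. A block that set the unnumbered libraries apart called 920 in bortezomib. Voom with the block called 1492, 1059 for KO2 and 657 between the knockout lines. With no filter on low values the 4 counts were 474, 876, 329 and 124. Without the genes of chromosomes 2, 12, 15, 18 and 19 they were 473, 775, 396 and 183, where fewer genes were tested, and after centring 594 genes were called in vehicle and 198 between the knockout lines. These position settings and voom without the block were chosen after seeing the data; the cause of the other shifts was not tested.

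Leaving out 1 vehicle library gave 445 (without KO1 R2) to 853 (without the unnumbered control) calls in vehicle, with 475 without KO1 R1 and 524 without control R2. The ranges were 1636 to 1843 in bortezomib, 274 (without control R2) to 721 for KO2, and 82 (without KO1 R2) to 416 between the knockout lines, with 156 without KO1 R1. The proteasome median was -0.56 to -0.15. The share of higher calls was 35.4% without KO1 R1 and 60% without KO1 R2. Of the 100 named genes called, 14 were called without the block, 47 without the filter, 69 after centring and 56 to 70 with a library left out, and none reversed in any of the 18 settings. Among uncalled genes, centring reversed DDIT3 (-0.01) and ASL (-0.02), and leaving out 1 library gave ranges of -0.00 to 0.23 for ADRM1, -0.02 to 0.20 for MTF1 and -1.59 to 0.09 for COL1A1.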
